A study of Mus musculus with 8 samples.

Results

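The growth hormone response of fibroblasts carrying the EA mutant of STAT5 was read from 4 of the 8 arrays of the series. The cells were mouse embryonic fibroblasts of the C57BL/6 strain. They lacked Stat5, and a retrovirus had brought in a mutant STAT5. The EA mutant is labelled as an EE to AA change in a binding domain, and the YF mutant, on the other 4 arrays, as Y694F. Each mutant had 2 arrays without stimulation (0 min of hormone) and 2 arrays after growth hormone for 120 min, so that the Stat5-null background and the viral vector were common to every group. A wild-type STAT5 and an empty vector are not analysed here. Whether a line came from 1 clone, and which promoter drove the transgene, is not given in the sources used here. Arrays were assigned by their labels, and the response is the mean of the 2 EA arrays with hormone minus the mean of the 2 EA arrays without it, on the log2 scale, for each of 45037 probe sets.

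Growth hormone binds its receptor and activates the kinase JAK2, which phosphorylates STAT5 on a conserved tyrosine. Phosphorylated STAT5 pairs up, enters the nucleus and binds TTCNNNGAA elements near genes such as Socs2 and Cish, whose products feed back on the receptor, and near Bcl6, a repressor gene that active STAT5 turns down in several cell types. NF-kB is a separate family of factors. It is held in the cytoplasm by IkB proteins and, once released by Toll-like or cytokine receptors, switches on chemokines, adhesion molecules and its own inhibitors within hours in fibroblasts. ATF4 is the factor that cells make more of under amino acid or endoplasmic reticulum stress, with Chac1 and Trib3 among its targets.

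The 2 EA arrays of a group correlated at 0.998 without hormone and 0.997 with it, a measure over probe sets, which are not independent of each other. The difference between the 2 arrays of a group had an SD of 0.247 without hormone and 0.291 with hormone. Array medians ran from 2.85 to 2.94 over all 8 arrays. EA with hormone replicate 2 had the highest median, and probe sets at the bottom of the scale read slightly higher on it. Many probe sets crowded at the bottom of the scale, and 24773 of them (55%) had a mean below 4. A value below 4 is called low here, or in the low group, and the size of a change with a low side is uncertain.

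Labels were checked against genes as far as the probe sets allow. Stat5a, the gene whose mutant was put back, read 4.83 and 5.36 without hormone and 4.28 and 4.86 with it, a change of -0.52 (SE 0.32, adjusted p = 0.87). Whether that probe set detects the viral transcript is not known. A second Stat5a probe set was low on every array of both mutants, between 2.36 and 2.53. Ghr, the growth hormone receptor gene, was near the top of the scale at 13.75 and 13.67 without hormone and 13.70 and 13.69 with it. Of 16 fibroblast markers, 2 were low on both sides, the proteoglycan genes Dcn and Lum, and the others included Vim at 14.97 and Col1a1 at 14.32 on EA replicate 1. The markers of other cell types were mostly low with and without hormone: 9 of 12 for macrophages, 8 of 9 each for epithelial and endothelial cells, 7 of 8 for skeletal muscle and 7 of 7 for lymphocytes.

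After 120 min of growth hormone, the EA cells had far more RNA for a set of chemokines (Ccl2, Ccl7, Ccl20, Cxcl1, Cxcl5 and Cxcl10), for the feedback inhibitor Socs2, and for inhibitors of NF-kB such as Tnfaip3 and Nfkbia. They had less RNA for the growth factor Fgf18, the repressor Bcl6 and the stress genes Chac1 and Trib3. In the limma fit, 61 of 45037 probe sets (0.135%) passed an adjusted p of 0.05, of which 42 were higher with hormone (0.0933%) and 19 lower (0.0422%). The higher ones named 30 genes and the lower ones 16, and 6 had no single gene symbol. With arrays centred on their medians 23 were higher and 22 lower. An absolute log2 change of at least 1, a factor of 2, was reached by 33 of the higher and 10 of the lower probe sets. The values of the 2 groups did not overlap for any of the 61, but neither did they for 21.7% of all probe sets on the higher side and 11.1% on the lower side. Both groups were low for 9 of the 61, the hormone-free group alone for 9 and the hormone group alone for 3. The median change over all probe sets was 0.03, and it was 0.02 over the brightest probe set of each gene. At an unadjusted p under 0.05 there were 2529 probe sets (5.62%).

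**Figure D1:**
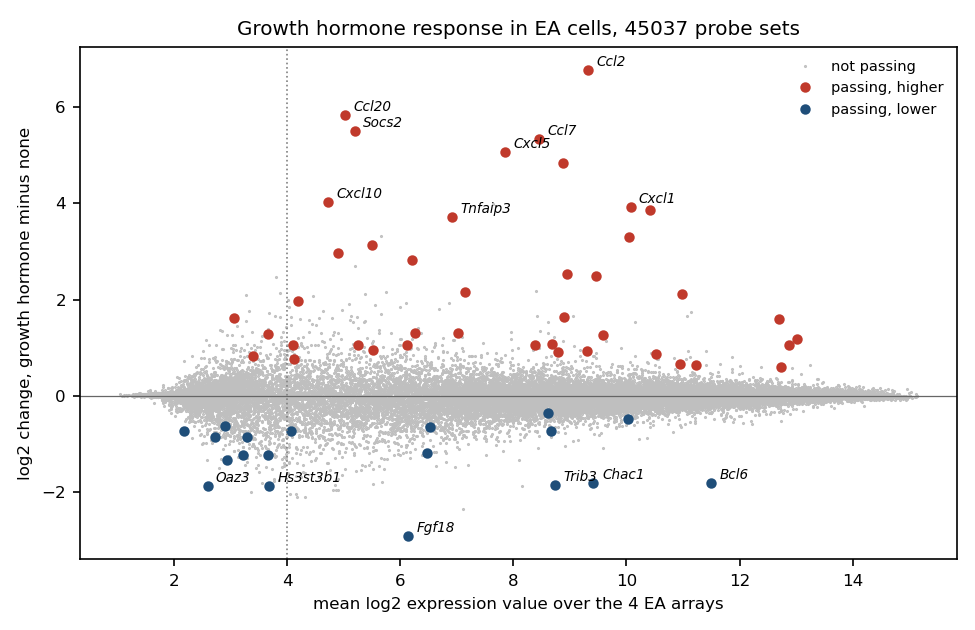
Mean log2 expression value over the 4 EA arrays (horizontal) against the log2 change with growth hormone (vertical) for 45037 probe sets; red and blue points are the 42 higher and 19 lower probe sets that passed, and the dotted line marks the bound of 4 for low values. The rises reach 6.77 (Ccl2) and the deepest passing change is -2.91 (Fgf18), so the passing rises extend farther from 0 than the passing falls.

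How many probe sets passed depended on which arrays gave the estimate of spread. The changes themselves came from the 4 EA arrays, and the YF arrays entered through the shared spread. For the EA response, leaving out either of the 2 arrays of a YF group gave the same fit. The 8 fits that each left out 1 array therefore include repeats, and a call counted in 2 of 8 can rest on 1 distinct fit. With either YF array without hormone left out, 9 probe sets passed, for Bcl6, Ccl2, Ccl20, Ccl7, Ch25h, Cxcl1, Opn1sw and Socs2. With either YF array with hormone left out, 21 passed. Leaving out an EA array kept the total between 41 and 80, but 16 of the 61 remained without EA replicate 1, 14 without EA replicate 2, 21 without EA with hormone replicate 1 and 18 without EA with hormone replicate 2. The number of higher calls was 15 without EA replicate 1 and 16 without EA replicate 2. The number of lower calls was 32 without EA replicate 1 and 31 without EA with hormone replicate 1. From the 4 EA arrays alone 4 probe sets passed, for Ccl2, Ccl20, Cxcl1 and Socs2. A probe set passed without any 1 of the 8 arrays for 7 of the 46 genes, namely Ccl20, Ccl7, Socs2, Cxcl1, Ch25h, Bcl6 and Opn1sw. For 18 genes no such fit passed, and the adjusted p then went up to 0.19. No change of a probe set that passed or lay near the threshold turned its sign in these fits.

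**Figure D2:**
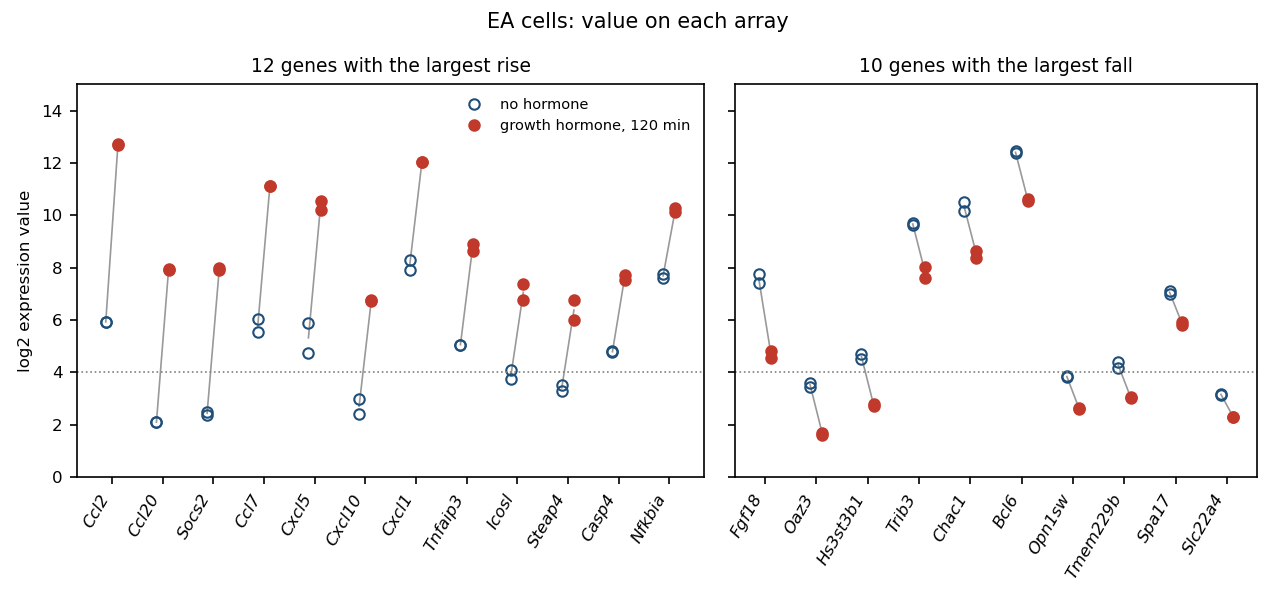
Log2 expression value on each EA array for the 12 genes with the largest rise (left) and the 10 with the largest fall (right) among passing genes; open circles are the 2 arrays without hormone, filled circles the 2 arrays with 120 min of growth hormone, grey lines join the group means and the dotted line is the bound of 4. Ccl2 goes from 5.93 to 12.70 on average, and Fgf18 from 7.59 to 4.68, with both arrays of each group close together.

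Socs2, which codes for a suppressor of cytokine signalling that is a classic STAT5 target and brake on the growth hormone receptor, rose strongly. Its brightest probe set read 6.29 and 6.64 without hormone and 11.34 and 11.27 with it, a change of 4.84 (SE 0.34, adjusted p = 0.029). A second probe set went from 2.39 and 2.49, in the low group, to 7.99 and 7.93, a change of 5.51 (SE 0.16, adjusted p = 0.0034). Both hormone arrays lay far above both control arrays. The other 4 Socs2 probe sets stayed low, with changes of 0.04 to 0.11. The second probe set passed in all 8 fits that left out 1 array, and the brightest in 0 of 8, with adjusted p from 0.06 to 0.11.

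Cish, the founding member of the same family, missed the threshold. Its arrays read 4.69 and 4.67 without hormone and 6.90 and 6.76 with it, a change of 2.15 (SE 0.21, adjusted p = 0.064). The groups were well apart, and with 1 array left out the adjusted p ranged from 0.014 to 0.22. Of 8 CIS and SOCS genes measured, 1 rose and 0 fell by the test, against 0.121% of all genes higher and 0.077% lower by their brightest probe set, and the median change of the family was 0.03. Socs3, which responds to other cytokines, was well expressed and read 10.82 and 10.67 without hormone and 10.50 and 10.73 with it. Socs1 was low on every EA array, between 1.76 and 1.82. Socs5 had the lowest change of the family at -0.29 (adjusted p = 0.65).

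Bcl6 was the brightest gene that fell. The gene codes for a zinc-finger repressor, and it read 12.45 and 12.38 without hormone and 10.56 and 10.63 with it, a change of -1.82 (SE 0.07, adjusted p = 0.0047). The 2 groups were apart by many times the gap between arrays of a group, and the call held in all 8 fits without 1 array, with adjusted p from 0.019 to 0.031. The second Bcl6 probe set was low on every EA array, with a change of -0.51. Among the passing genes with a promoter in the RefSeq table, Bcl6 and Steap4 held a TTCNNNGAA match before a start. RefSeq lists 2 Bcl6 starts with a promoter sequence, and the 250 bases before each are shown because both hold such matches, in capitals (GRCm38.p6, chr16:23988853-23989102 and chr16:23981284-23981533, both on the minus strand and written 5′ to 3′ along the gene). The first start has 1 match and the second has 3.
Bcl6 first start: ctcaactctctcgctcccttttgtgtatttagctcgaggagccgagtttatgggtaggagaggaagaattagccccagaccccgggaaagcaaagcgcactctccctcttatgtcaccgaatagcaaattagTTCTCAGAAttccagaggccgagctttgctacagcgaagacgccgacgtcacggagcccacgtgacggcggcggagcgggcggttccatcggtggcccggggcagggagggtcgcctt
Bcl6 second start: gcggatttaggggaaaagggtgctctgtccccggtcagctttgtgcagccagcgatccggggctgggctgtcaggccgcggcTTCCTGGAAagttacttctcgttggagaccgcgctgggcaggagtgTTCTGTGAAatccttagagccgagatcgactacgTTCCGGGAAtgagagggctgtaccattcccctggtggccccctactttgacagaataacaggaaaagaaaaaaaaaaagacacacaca

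The STAT5 target list held 21 measured genes, of which 1 rose (Socs2) and 1 fell (Bcl6), with a median change of 0.03. The arrays of the 2 groups did not overlap for 6 members on the higher side and 4 on the lower side, while 18.4% and 14.3% of all genes did so by their brightest probe set. Igf1, the growth factor gene through which growth hormone acts in liver, read 3.68 and 5.05 without hormone and 5.67 and 5.42 with it. Its change of 1.18 (SE 0.44) did not pass (adjusted p = 0.83), and the gap between the 2 control arrays was of similar size. Pim1, a survival kinase gene, changed by 0.37 (adjusted p = 0.66). Myc, a growth regulator, changed by -0.83 (SE 0.55, adjusted p = 0.87). Ccnd1 and Ccnd2, the cyclin genes of early G1, were bright and changed by -0.12 and -0.10. Mcl1 and Bcl2l1, which protect cells from death, changed by 0.04 and -0.10.

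Genes that carry the hormone signal had no passing change. Of 25 measured genes of the receptor and JAK-STAT pathway, 0 passed in the limma fit (3 at an unadjusted p under 0.05, of which 1 was higher and 2 lower, called unadjusted here), the arrays did not overlap for 5 higher and 2 lower (18.4% and 14.3% of all genes), and the median change was 0.01. At one end stood Sh2b1, an adaptor that binds JAK2, which read 8.33 and 8.18 without hormone and 7.89 and 7.54 with it (adjusted p = 0.59). Irs1, an adaptor of insulin and growth hormone signalling, had a change of -0.41 (SE 0.07, adjusted p = 0.25). Jak2 itself read 11.97 and 12.07 without hormone and 12.11 and 12.02 with it. Among 13 genes of the IGF system 0 passed (2 higher and 1 lower unadjusted), with a median of 0.02, and Igfbp3, which carries IGFs in the circulation, had a change of 0.82 (adjusted p = 0.79).

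The largest rise was that of Ccl2, the main attractant of monocytes. It read 5.92 and 5.94 without hormone and 12.72 and 12.68 with it, a change of 6.77 (SE 0.47, adjusted p = 0.029). Its neighbour in function Ccl7, another monocyte attractant, read 5.53 and 6.04 without hormone and 11.13 and 11.12 with it, a change of 5.34 (SE 0.18, adjusted p = 0.0039). Both genes went from the lower part of the measured range to the upper part, and the 2 hormone arrays lay within 0.05 of each other. With 1 array left out Ccl7 passed in 8 of 8 fits, and Ccl2 in 2 of 8, with adjusted p up to 0.11. Ccl20, which attracts cells that carry CCR6, went from 2.10 and 2.11, deep in the low group, to 7.91 and 7.96, a change of 5.83 (SE 0.03, adjusted p = 2.3e-06). It was the one gene that passed under all 18 alternative settings. The size of its rise is uncertain because the control side was low.

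Of 18 CC chemokines measured, 3 rose and 0 fell. The arrays did not overlap for 8 members on the higher side and 0 on the lower side, against 18.4% and 14.3% of all genes. The median was 0.05 and 9 members were low on both sides. Ccl9 and Ccl5, attractants of myeloid cells and of T cells, were well expressed and read higher without passing. Ccl9 read 8.28 and 7.94 without hormone and 9.18 and 9.49 with it (change 1.23, SE 0.17, adjusted p = 0.17), and Ccl5 had a change of 1.14 (SE 0.45, adjusted p = 0.87). Ccl3, Ccl4 and Ccl22, typical products of macrophages, were low on all 4 EA arrays, between 1.90 and 2.15.

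Among the CXC chemokines, Cxcl5, an attractant of neutrophils, had the largest rise. It read 5.90 and 4.73 without hormone and 10.21 and 10.56 with it, a change of 5.06 (SE 0.42, adjusted p = 0.042). Its control arrays lay farther apart than those of the other chemokines that rose, and the call held in 1 of 8 fits without 1 array, with adjusted p up to 0.17. Cxcl1, the best known attractant of neutrophils in the mouse, was measured by 3 probe sets that all rose. The brightest read 8.40 and 8.55 without hormone and 12.28 and 12.41 with it, a change of 3.87 (SE 0.20, adjusted p = 0.016), and the others changed by 3.93 and 3.31. Cxcl10, which attracts activated T cells, went from 2.71 ± 0.41 (SD, n = 2 arrays) to 6.72 and 6.75, a change of 4.02 (SE 0.27, adjusted p = 0.028) that starts in the low group and passed in 2 of 8 fits without 1 array. Cxcl2, a relative of Cxcl1, also left the low group, from 2.60 and 2.52 to 4.66 and 5.40, without passing (change 2.47, SE 0.24, adjusted p = 0.062).

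Of 15 CXC and CX3C chemokines, 3 rose and 0 fell, the arrays did not overlap for 9 higher and 1 lower (18.4% and 14.3% of all genes), and the median was 0.22. Cxcl12, the constitutive chemokine of fibroblasts, was near the top of the scale, with 13.95 and 13.88 without hormone and a change of 0.13 (SE 0.06, adjusted p = 0.87). Cxcl9 and Cxcl11, which share a receptor with Cxcl10, were low on every EA array, between 2.53 and 2.82. Of the 12 macrophage markers 0 passed (0 higher and 1 lower unadjusted). Ptprc, Adgre1 and Itgam were among the 9 markers that were low with and without hormone, and lay between 2.35 and 2.58 on every EA array. The remaining markers, Mrc1 among them, were not low on both sides. The level summed over the 12 markers on the linear scale was 2808 and 2777 without hormone and 2871 and 2129 with it. The part of macrophages in the chemokine values was not tested. Mrc1, a mannose receptor gene, read 5.72 and 5.02 without hormone and 3.68 and 2.86 with it (adjusted p = 0.22). In RNA from whole cultures, fewer cells of a type and less RNA per cell cannot be told apart.

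The region before the start of several of these genes holds a kB consensus match, the element that NF-kB binds. Promoters from RefSeq (GRCm38.p6) were used for 21 of the 30 genes that rose, with 25 starts in all, and Socs2 and Ccl2 were not among them. The promoters of a whole chromosome were left out before counting, so a gene without a promoter here may have one in RefSeq. In the 250 bases before the start, 11 of these 25 (44%) held a kB consensus on either strand, against 3.9% of the 32851 promoters of the table. Those of 3 chemokines and of Nfkbia are shown because these genes carry the chemokine and inhibitor rises described here, with the match in capitals, 5′ to 3′ along the gene. Ccl20 lies at chr1:83116516-83116765 on the plus strand, Cxcl1 at chr5:90890995-90891244 on the plus strand, Cxcl10 at chr5:92348890-92349139 on the minus strand and Nfkbia at chr12:55492648-55492897 on the minus strand.
Ccl20: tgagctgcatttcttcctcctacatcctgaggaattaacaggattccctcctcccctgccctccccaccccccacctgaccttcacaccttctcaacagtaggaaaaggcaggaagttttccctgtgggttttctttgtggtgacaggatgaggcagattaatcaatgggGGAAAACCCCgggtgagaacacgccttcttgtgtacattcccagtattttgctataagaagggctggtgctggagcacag
Cxcl1: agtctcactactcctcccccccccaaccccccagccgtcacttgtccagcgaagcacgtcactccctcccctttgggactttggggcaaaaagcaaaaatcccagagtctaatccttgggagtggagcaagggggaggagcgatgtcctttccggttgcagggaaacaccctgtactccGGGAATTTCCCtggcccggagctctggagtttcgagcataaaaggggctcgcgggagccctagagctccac
Cxcl10: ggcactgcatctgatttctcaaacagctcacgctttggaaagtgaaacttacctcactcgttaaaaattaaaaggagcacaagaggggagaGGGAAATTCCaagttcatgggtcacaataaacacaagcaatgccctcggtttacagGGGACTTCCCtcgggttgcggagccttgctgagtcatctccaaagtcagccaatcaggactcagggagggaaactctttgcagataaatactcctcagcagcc
Nfkbia: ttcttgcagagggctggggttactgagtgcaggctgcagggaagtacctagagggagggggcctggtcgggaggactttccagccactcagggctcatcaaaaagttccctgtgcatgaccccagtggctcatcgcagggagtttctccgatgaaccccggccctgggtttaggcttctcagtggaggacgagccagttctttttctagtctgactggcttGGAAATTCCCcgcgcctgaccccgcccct

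Matches began 80 bases before the start for Ccl20, 71 and 70 for Cxcl1, where 2 overlapping matches on opposite strands form 1 run, 159 and 103 for Cxcl10, and 29 for Nfkbia. The other genes with a match were 6430571L13Rik, Casp4, Steap4, Tlr2, Tnfaip3 and Zc3hav1. TTCNNNGAA was found in 1 of these 25 promoters (4%), that of Steap4, while 7.02% of all promoters hold it. Of the 18 promoters of genes that fell, covering 13 of 16 genes, 1 held a kB consensus (5.56%, Amz1) and 2 held TTCNNNGAA (11.1%, both of Bcl6). CArG, the element of serum response factor, was in 0 of the 25 and 0 of the 18, and in 1.47% of all promoters. A match describes the letters of these windows and says nothing of binding in these cells.

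**Figure D3:**
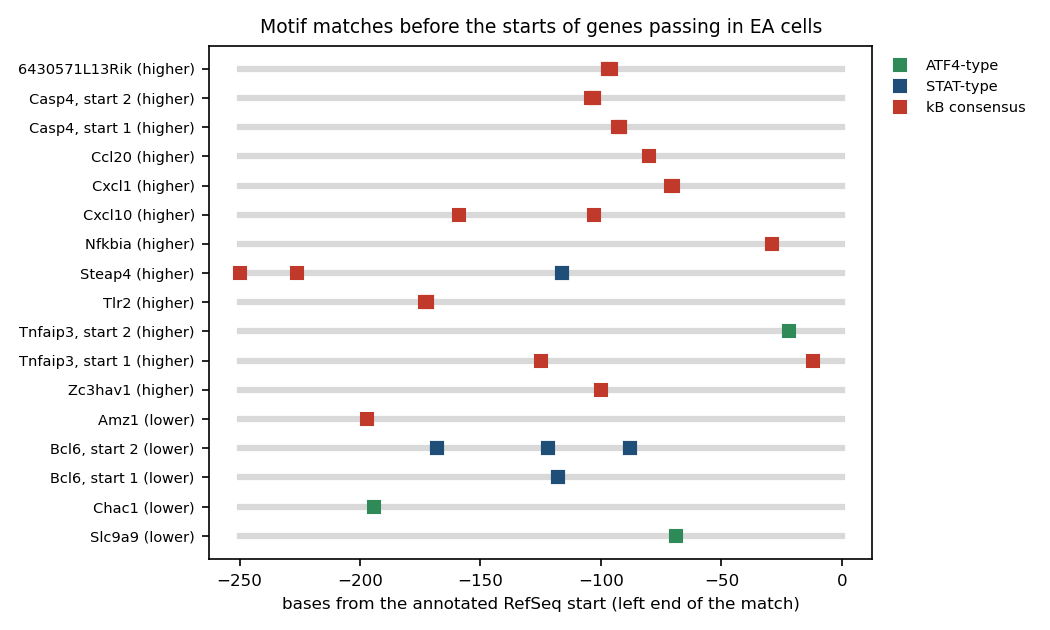
Position of motif matches (left end, in bases from the annotated RefSeq start) in the 250 bases before the starts of passing genes with at least 1 match; grey bars are the windows, red squares mark the kB consensus, blue the STAT-type TTCNNNGAA and green the ATF4-type TGATGNAAN. Red squares lie on 12 of the 17 windows, 11 of them of genes that rose, and blue squares on both Bcl6 starts and on Steap4.

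Inhibitors of NF-kB, which are themselves NF-kB targets, had the highest median change of the 33 lists in the main setting. Of 19 measured genes 3 rose and 0 fell, and the median was 0.43, against 0.02 for all genes. The arrays did not overlap for 12 higher and 0 lower (18.4% and 14.3% of all genes). Over alternative settings the median ran from 0.35 to 0.49, and that of CC chemokines from 0.01 to 1.14, so the rank depends on the setting. Among these settings was a filter for a mean of at least 4 over the EA arrays, hormone arrays included. Such a filter can keep a member through its rise alone, as with Ccl20, which had a mean of 2.10 without hormone and 7.94 with it. A higher median under that filter is therefore in part set by the selection. Tnfaip3, a ubiquitin-editing enzyme that shuts off the pathway, read 5.06 on both arrays without hormone and 8.63 and 8.92 with it, a change of 3.71 (SE 0.30, adjusted p = 0.04). Nfkbia, which codes for the inhibitor IkB-alpha, had 5 probe sets and all of them passed, with changes of 1.07 to 2.52. The brightest read 12.38 and 12.50 without hormone and 13.57 and 13.65 with it, close to the top of the scale. Birc3, a ubiquitin ligase of the tumour necrosis factor receptor, rose by 1.05 (SE 0.08, adjusted p = 0.031), from 7.84 and 7.86 to 8.97 and 8.83. Without 1 array, Tnfaip3 and Birc3 passed in 0 of 8 fits, with adjusted p up to 0.16 and 0.13, and the brightest Nfkbia probe set in 6 of 8.

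Other members of that list read higher with hormone on both arrays without passing. Bcl3, an IkB protein of the nucleus, read 7.49 and 7.12 without hormone and 9.61 and 9.37 with it (change 2.19, SE 0.21, adjusted p = 0.06). Zc3h12a, an RNase that clears cytokine messages, read 3.42 on both control arrays and 5.36 and 5.62 with hormone (adjusted p = 0.11). Nfkbiz and Nfkbie, further IkB genes, had changes of 1.66 and 1.65 by their brightest probe sets (adjusted p = 0.15 and 0.20), and another Nfkbie probe set had 1.93 (adjusted p = 0.092). Of the subunits and kinases of the pathway 0 of 13 passed (3 higher and 0 lower unadjusted) and the median was 0.06. Relb and Nfkb2, the subunits of its slower branch, had changes of 1.33 (adjusted p = 0.68) and 0.95 (adjusted p = 0.35), while Rela, the main activating subunit, had 0.29 (adjusted p = 0.87).

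Toll-like and cytokine receptors, their adaptors and a list of cytokines were mostly without a passing change. Of 30 receptors and adaptors the arrays did not overlap for 12 higher and 4 lower (18.4% and 14.3% of all genes). By their brightest probe set 0.121% of all genes passed on the higher side. Tlr2, the receptor for bacterial lipoproteins, rose from 8.18 and 7.96 to 9.82 and 9.60, a change of 1.64 (SE 0.11, adjusted p = 0.028), and was the 1 passing gene of 30 receptors and adaptors, whose median was 0.04. It passed in 0 of 8 fits without 1 array, with adjusted p from 0.062 to 0.11. Tlr4, the endotoxin receptor, read 8.80 and 8.43 without hormone and 7.83 and 7.80 with it (change -0.81, SE 0.20, adjusted p = 0.48). Il1r1, the receptor of interleukin 1, had a change of 0.64 (adjusted p = 0.74). Among 25 cytokines and colony-stimulating factors 0 passed (3 higher and 3 lower unadjusted), 14 were low on both sides and the median was 0.03. Il6 was low on all 4 arrays, between 2.58 and 2.78, as was Csf2, between 2.17 and 2.27. Lif, a relative of Il6, had the highest change of that list, 0.58 (SE 0.10, adjusted p = 0.27).

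Surface molecules for contact with leukocytes included 1 passing gene of 16, against 0.121% of all genes higher by their brightest probe set, with a median of 0.11. The arrays did not overlap for 8 higher and 1 lower (18.4% and 14.3% of all genes). Icosl, a costimulatory ligand for T cells, went from 3.75 and 4.10 to 6.75 and 7.36, a change of 3.13 (SE 0.26, adjusted p = 0.044) whose control mean was low. It passed in 0 of 8 fits without 1 array (adjusted p up to 0.16). Vcam1, a leukocyte adhesion molecule, was expressed in fibroblasts without hormone at 10.38 and 10.15 and read 11.84 and 12.17 with it (change 1.74, SE 0.19, adjusted p = 0.092). Icam1, its partner in function, read 4.29 and 3.22 without hormone and 5.32 and 5.45 with it (adjusted p = 0.45).

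Genes of innate defence gave 2 passing members of 22, against 0.121% of all genes higher by their brightest probe set, with a median of 0.04. The arrays did not overlap for 8 higher and 1 lower (18.4% and 14.3% of all genes). Steap4, a metalloreductase induced by inflammation, went from 3.28 and 3.53, in the low group, to 6.00 and 6.76, a change of 2.97 (SE 0.25, adjusted p = 0.046). Ch25h, which makes an antiviral oxysterol, read 6.08 and 6.03 without hormone and 8.27 and 8.17 with it, a change of 2.16 (SE 0.05, adjusted p = 0.0019). The arrays of each Ch25h group lay within 0.1 of each other, and the call held in 8 of 8 fits without 1 array. Casp4, the inflammatory caspase that senses endotoxin, stood outside the list and rose by 2.83 (SE 0.24, adjusted p = 0.046), from 4.78 and 4.81 to 7.53 and 7.72. Steap4 and Casp4 each passed in 2 of 8 such fits, with adjusted p up to 0.16 and 0.19. The acute-phase genes Saa3 and Lcn2, frequent NF-kB targets, had changes of 0.29 (SE 0.49) and -0.04 (SE 0.46).

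Interferon-stimulated genes did not share a direction. Of 32 measured, 0 passed (3 higher and 6 lower unadjusted), 9 were higher and 9 lower without overlap (18.4% and 14.3% of all genes), and the median was 0.00. Gbp2, a guanylate-binding GTPase, had a change of 1.04 (SE 0.30, adjusted p = 0.60). Usp18, an inhibitor of interferon signalling, had -1.17 (SE 0.41, adjusted p = 0.76), and Oas1a, a sensor of double-stranded RNA, -1.10 (SE 0.13, adjusted p = 0.11). Gbp6, another guanylate-binding GTPase that was not in the list, passed by a probe set that left the low group, from 3.31 and 3.11 to 4.94 and 5.41 (change 1.96, SE 0.16, adjusted p = 0.04). The brightest Gbp6 probe set had -0.25, so the 2 probe sets differed in direction.

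The remaining genes that rose did so by 0.60 to 1.61 and belong to none of these lists. Cdk6, the kinase that cyclin D activates in G1, rose on 2 of its 3 probe sets. The brightest read 8.81 and 9.10 without hormone and 10.25 and 10.19 with it, a change of 1.27 (SE 0.10, adjusted p = 0.04). The second gave 1.31 and the third, which was low, 0.16. Among 22 genes of G1/S and DNA replication 0 passed, also unadjusted, with a median of 0.01. Lrrtm2, a synaptic adhesion protein, rose by 1.30 (SE 0.07, adjusted p = 0.019), Raph1, which directs actin at the cell edge, by 1.06 (SE 0.08, adjusted p = 0.034), and Zwint, a kinetochore protein, by 1.05 (SE 0.08, adjusted p = 0.031). These were dim probe sets for Raph1 and Zwint, whose brightest ones had 0.33 (adjusted p = 0.51) and 0.06 (adjusted p = 0.88), and 1 of 7 Zwint probe sets passed. Pag1, a membrane adaptor that binds the kinase CSK, rose by 0.93 (SE 0.07, adjusted p = 0.034) from 8.86 and 8.82 to 9.86 and 9.68.

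Smaller rises were seen in bright genes. Ugp2, which makes UDP-glucose, read 12.41 and 12.45 without hormone and 13.04 and 13.03 with it, a change of 0.60 (SE 0.04, adjusted p = 0.022). Its other 4 probe sets lay between 0.46 and 0.92 without overlap between groups. Eps8, an actin regulator, rose by 0.65 (SE 0.05, adjusted p = 0.04), and its other 2 probe sets gave 0.59 and 1.06. Slc7a6, an amino acid exchanger, rose by 0.64 (SE 0.05, adjusted p = 0.045), and Nipal1, a magnesium transporter, by 0.86 (SE 0.06, adjusted p = 0.03). None of these 4 genes passed in any fit that left out 1 array. Trim47 at 1.08, Jph1 at 1.05, Zc3hav1 at 0.96, Tubgcp5 at 0.84 and 6430571L13Rik at 1.61 complete the 30, and the last 2 were low with and without hormone. By their brightest probe sets Zc3hav1 had -0.03, Tubgcp5 0.18 and 6430571L13Rik 1.56, none of which passed.

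Fgf18, a growth factor of cartilage, bone and lung, had the deepest fall. It read 7.43 and 7.76 without hormone and 4.83 and 4.54 with it, a change of -2.91 (SE 0.19, adjusted p = 0.025). Both hormone arrays lay well below both control arrays. In fits without 1 array its change ranged from -3.08 to -2.74 and the adjusted p from 0.062 to 0.098. Of 17 FGF ligands, receptors and binding proteins it was the only one to pass, 8 were low on both sides, and the median was 0.02. By their brightest probe set 0.077% of all genes passed on the lower side. The arrays of the 17 did not overlap for 3 higher and 2 lower (18.4% and 14.3% of all genes). Fgfr1, the main receptor gene of fibroblasts, had a change of 0.55 (SE 0.11, adjusted p = 0.38). Fgf7, a paracrine factor for epithelia, was bright and read 13.05 and 13.09 without hormone and 12.98 and 13.09 with it. Among 20 other secreted growth factors 0 passed (2 higher and 5 lower unadjusted), with a median of -0.11. Hbegf, an EGF receptor ligand, read 10.54 and 10.80 without hormone and 9.84 and 9.70 with it (change -0.90, SE 0.11, adjusted p = 0.13), and Bdnf had -0.92 (SE 0.19, adjusted p = 0.39).

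Hs3st3b1, which adds a rare sulfate to heparan chains, fell from 4.51 and 4.72 into the low group at 2.70 and 2.78, a change of -1.87 (SE 0.11, adjusted p = 0.02). It was the 1 passing gene of 17 heparan sulfate genes, against 0.077% of all genes lower by their brightest probe set, and their median was 0.00. The arrays did not overlap for 3 higher and 6 lower (18.4% and 14.3% of all genes). Hs6st1, another sulfotransferase, had -0.48 (SE 0.16, adjusted p = 0.75). Oaz3, a germ-cell antizyme that restrains polyamine synthesis, passed within the low group, from 3.61 and 3.45 to 1.70 and 1.61 (change -1.88, SE 0.09, adjusted p = 0.012), and its other 5 probe sets were low with changes of -0.02 to 0.20. The other 7 polyamine genes did not pass, and Odc1, the rate-limiting enzyme, had a change of 0.15 (adjusted p = 0.87).

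The ATF4 targets had the lowest median change of the 33 lists in the main setting. Of 34 measured genes 2 fell and 0 rose (14 lower and 1 higher unadjusted), 27 had a change below 0, and the arrays did not overlap for 20 on the lower side and 1 on the higher side, against 14.3% and 18.4% of all genes. The median was -0.22. Over alternative settings it ran from -0.31 to -0.14, and that of immediate early genes from -0.19 to -0.07. Chac1, which degrades glutathione, read 10.15 and 10.50 without hormone and 8.38 and 8.63 with it, a change of -1.82 (SE 0.14, adjusted p = 0.038). Trib3, a pseudokinase that dampens the same stress response, read 9.62 and 9.72 without hormone and 8.02 and 7.62 with it, a change of -1.85 (SE 0.14, adjusted p = 0.034). By another probe set Trib3 had -1.88 (adjusted p = 0.052). Without 1 array Chac1 passed in 1 of 8 fits and Trib3 in 2 of 8, each with adjusted p up to 0.13.

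Most other members were below 0 by less. Cth, an enzyme of cysteine synthesis, had -0.85 (SE 0.31, adjusted p = 0.80), Stc2, a secreted stress protein, -0.65 (SE 0.16, adjusted p = 0.48), Ddit3, a factor of stress-induced death, -0.64 (SE 0.27, adjusted p = 0.87) and Sesn2, a sensor of amino acids, -0.45 (SE 0.10, adjusted p = 0.42). Asns, the asparagine synthetase gene often used as a readout of ATF4, read 13.76 and 13.75 without hormone and 13.75 and 13.71 with it, near the top of the scale. Cebpb was the member farthest above 0, at 0.74 (adjusted p = 0.84). The chaperone genes of the endoplasmic reticulum, a neighbouring stress programme, had 0 of 22 passing (0 higher and 2 lower unadjusted) and a median of -0.01. Hspa5, the main chaperone, had 0.05 and Herpud1, which helps clear misfolded proteins, -0.53 (SE 0.11, adjusted p = 0.38). In YF cells the ATF4 list had a median of 0.10, although Chac1 and Trib3 read lower there too, at -1.44 and -1.46. The promoter of Chac1 (chr2:119350992-119351241, plus strand) is shown because it holds TGATGNAAN, the ATF4-type element, on the opposite strand, in capitals. That motif was in 2 of the 18 promoters of genes that fell (11.1%) and in 3.44% of all promoters.
Chac1: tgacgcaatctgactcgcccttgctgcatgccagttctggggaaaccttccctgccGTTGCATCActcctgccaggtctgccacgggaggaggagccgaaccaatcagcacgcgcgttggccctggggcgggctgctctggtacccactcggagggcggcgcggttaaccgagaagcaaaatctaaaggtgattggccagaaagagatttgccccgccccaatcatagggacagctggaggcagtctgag

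Immediate early genes, which peak soon after a stimulus, had no passing change at 120 min. Of the 30 measured, 19 had a change below 0 (2 were higher and 8 lower unadjusted). The arrays did not overlap for 14 on the lower side and 5 on the higher side, against 14.3% and 18.4% of all genes, and the median was -0.15. Fos, part of the AP-1 factor, read 8.39 and 8.18 without hormone and 5.73 and 6.15 with it (change -2.34, SE 0.28, adjusted p = 0.11). Nr4a1, an orphan nuclear receptor, had -1.22 (SE 0.43, adjusted p = 0.76), whereas its relative Nr4a3 had 1.79 (SE 0.35, adjusted p = 0.34). Of 18 MAP kinase phosphatase and Sprouty genes, the usual feedback of growth factor signalling, 0 passed (1 higher and 1 lower unadjusted) and the median was -0.11. Dusp6, a phosphatase of ERK, had -0.58 (SE 0.29, adjusted p = 0.87) and Dusp5 0.84 (SE 0.19, adjusted p = 0.43).

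**Figure D4:**
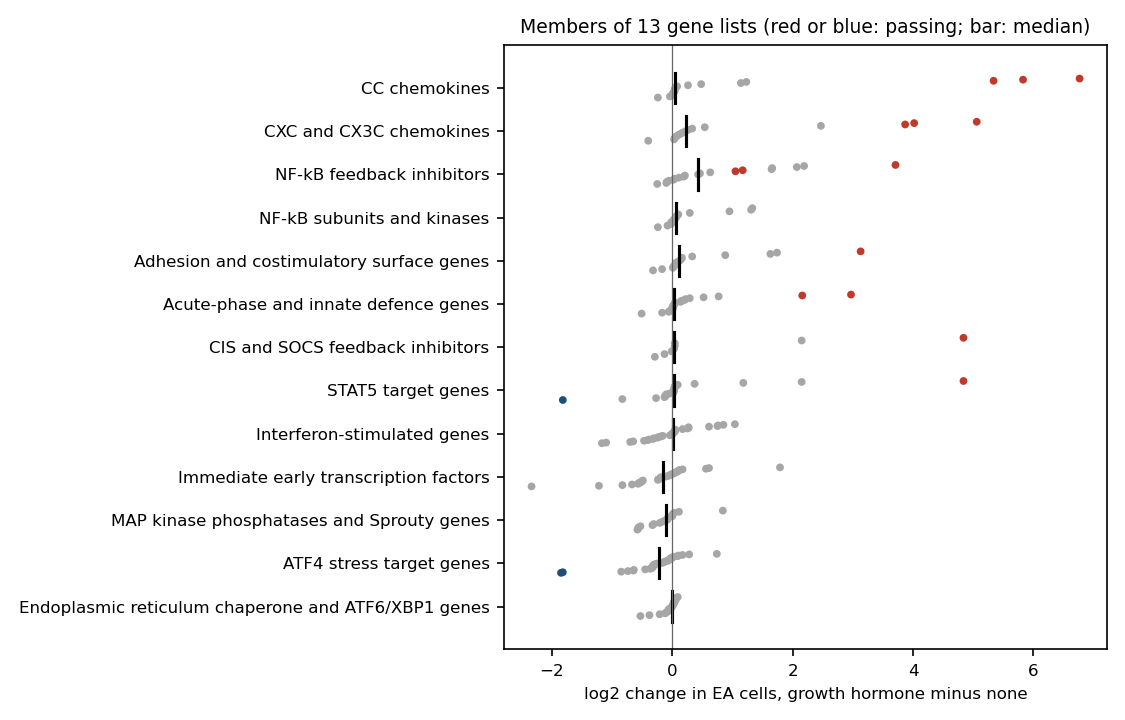
Log2 change in EA cells (horizontal) of each measured member of 13 gene lists, by the brightest probe set of a gene; red and blue points passed, grey points did not, and black bars are list medians. The bars run from -0.22 for ATF4 targets to 0.43 for NF-kB feedback inhibitors. The red points to the far right are a few members of their lists rather than whole lists. They include chemokines and, in the CIS and SOCS and STAT5 target lists, Socs2.

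Several programmes that growth factors can move had no passing member. These were the prostaglandin genes (0 of 12, median 0.01), matrix proteases and inhibitors (0 of 16, median -0.03), sterol synthesis (0 of 21, median -0.06) and spindle genes (0 of 25, median 0.00), with 2, 5, 1 and 0 unadjusted. Ptgs2, the inducible cyclooxygenase, was already high without hormone at 12.03 and 12.29 and read 12.16 and 12.35 with it. Hpgd, which degrades prostaglandins, read 12.49 and 12.48 with hormone, below both control arrays (change -0.51, SE 0.05, adjusted p = 0.062). Mmp13, a collagenase, went from 2.75 and 3.80 to 3.83 and 5.18, groups that all but meet (adjusted p = 0.87). Of 14 genes induced by glucocorticoids 1 passed, Nfkbia, which also stands in the NF-kB list. Tsc22d3, the most specific of them, had 0.02 and Fkbp5 0.49 (adjusted p = 0.82).

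The other genes that fell had changes of -1.22 to -0.35, and several of them were low on at least 1 side. Spa17, named for a sperm antigen, read 7.01 and 7.12 without hormone and 5.83 and 5.93 with it, a change of -1.18 (SE 0.08, adjusted p = 0.028). Opn1sw, the opsin of blue cones, passed inside the low group, from 3.81 and 3.87 to 2.63 and 2.60 (change -1.22, SE 0.04, adjusted p = 0.0034). The other Opn1sw probe set, also low, went the other way, from 2.67 and 2.87 to 3.17 and 2.94 (change 0.29, adjusted p = 0.77). Also within the low group were 3 genes, Slc22a4 at -0.86, Amz1 at -0.85 and Rell2 at -0.73. Their SEs of 0.04 to 0.05 rest on values whose scale is unknown. Tmem229b (-1.22) and Slco3a1 (-0.73), an organic anion transporter, ended in the low group, and their brightest probe sets had -0.17 and -0.16 without passing. Gabrb2, a subunit of the GABA receptor, fell on 2 probe sets by 0.73 and 0.64. Klf7, a zinc-finger factor, fell by 0.49 (SE 0.04, adjusted p = 0.04), with 3 further probe sets between -0.81 and -0.50, and Slc9a9, an endosomal proton exchanger, fell by 0.35 (SE 0.03, adjusted p = 0.04).

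Probe sets of the same gene were compared within the array. Of the 46 genes 15 had 1 probe set and 31 had several. All probe sets passed for 2 of the 31, Cxcl1 and Nfkbia, and at least 2 passed for 5. The brightest probe set was among the passing ones for 36 of the 46. Of 63 other probe sets of these genes 48 had the sign of the passing one, while 37 of the 63 were low. Of the 48, 35 did not overlap between the groups. Over all probe sets 21.7% did so on the higher side and 11.1% on the lower side. Among genes that fell the other probe sets shared the sign less often, and those of Hs3st3b1 had 0.01 to 0.06. For a low probe set a shared sign says little.

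Besides the genes above, 3 genes with an adjusted p between 0.05 and 0.10 and a change of at least 1 in size read higher with hormone and 2 read lower. Slc11a2, an iron transporter, had 1.80 (SE 0.16, adjusted p = 0.052) and Frmd5 1.31 (SE 0.12, adjusted p = 0.052). Their brightest probe sets had 0.66 (adjusted p = 0.61) and 1.05 (adjusted p = 0.50), and 2 further ones of Slc11a2 had 0.34. Ptchd4 had 1.57 (SE 0.17, adjusted p = 0.092). Slc5a8, a carrier of short fatty acids, had -1.20 (SE 0.11, adjusted p = 0.06) and Elavl2, an RNA-binding protein, -1.58 (SE 0.18, adjusted p = 0.096), and both ended low. The brightest Elavl2 probe set had -0.84 (adjusted p = 0.18).

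The EA response was then set against that of YF cells, which share no array with it. Mutant and cell line cannot be told apart in these arrays. The 2 mutants also differed in Stat5a by its brighter probe set, which read 7.95 and 7.82 in YF cells without hormone. With hormone it read 8.51 and 7.87 there, and all of these lay above all 4 EA arrays. Other genes differed without hormone in both directions. The mean of Igf1 was 4.36 in EA cells and 9.52 in YF cells, and that of Ccl5 was 9.07 and 4.84. The part of such levels in the differences was not tested. Of the 61 probe sets 49 had the same sign in YF cells, and 16 passed there as well in the same direction, where 81 of 45037 (0.18%) passed in all. Cxcl10 had 4.02 in EA cells and 4.12 in YF cells, Cxcl1 3.87 and 3.36 by its brightest probe set, Nfkbia 1.17 and 1.25, Tlr2 1.64 and 1.55, and Birc3 1.05 and 1.06. The 95% interval of the difference was -1.06 to 0.87 for Cxcl10 and -0.30 to 0.49 for Tlr2. Other EA rises were smaller in YF cells without a difference that passed. Steap4 had 2.97 against 0.03, a difference of 2.94 (SE 0.36, adjusted p = 0.16), Icosl 3.13 against 0.57 (adjusted p = 0.20) from a YF control level of 6.71 and 6.84, above the 3.75 and 4.10 of EA cells, and Cdk6 1.27 against -0.29 (adjusted p = 0.10). Fgf18 had -2.91 against -0.22, a difference of -2.69 (SE 0.26, adjusted p = 0.11).

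The difference of the 2 responses passed for 9 of 45037 probe sets (0.02%), and 5 of these had passed in EA cells. Socs2 differed by 5.11 (SE 0.23, adjusted p = 0.025) by its second probe set, which read 2.37 and 2.73 in YF cells without hormone and 3.14 and 2.77 with it. By its brightest probe set Socs2 differed by 5.15 (SE 0.47), which did not pass (adjusted p = 0.10). Bcl6 differed by -1.85 (SE 0.09, adjusted p = 0.025), with YF arrays at 12.28 and 12.15 without hormone and 12.29 and 12.19 with it. Ch25h differed by 1.82 (SE 0.07) and Ccl20 by 1.44 (SE 0.05), with adjusted p of 0.025 and 0.022. Ccl20 rose in YF cells too, by 4.39, from a level that was low in both mutants. Opn1sw differed by -1.17 (SE 0.05, adjusted p = 0.025) within the low group, while its other probe set, also low, had 0.28 (adjusted p = 0.45). Cish differed by 2.11 (SE 0.30) without passing (adjusted p = 0.20).

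**Figure D5:**
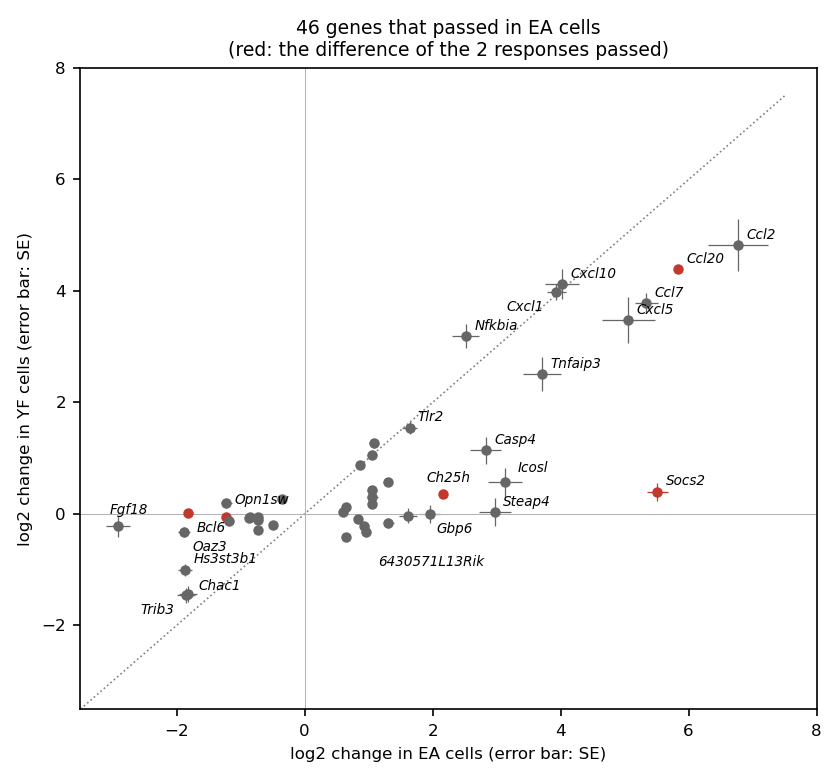
Log2 change with growth hormone in EA cells (horizontal) and in YF cells (vertical) for the 46 genes that passed in EA cells, by the passing probe set with the largest change; bars are SEs, the dotted line marks equal changes, and red marks the 5 genes whose difference passed. Cxcl10 and Cxcl1 lie on the line, Socs2 lies near 0 for YF cells, and Bcl6 lies at -1.82 for EA cells and 0.02 for YF cells.

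The number of such differences depended on single arrays. The 2 YF arrays with hormone differed from each other more than those of any other group, with an SD of 0.336 over probe sets. Without YF with hormone replicate 1, 8 probe sets passed, and the adjusted p was 0.038 for Socs2, 0.04 for Ccl20, 0.064 for Bcl6 and 0.064 for Opn1sw. Without its partner, replicate 2, 201 passed, and those 4 genes had 0.033. Without EA replicate 1, EA replicate 2, YF replicate 1 or YF replicate 2 the number passing was 1, 0, 3 and 0. Without EA with hormone replicate 1 it was 48, and without EA with hormone replicate 2 it was 15. The size of the Socs2 difference stayed between 4.93 and 5.29 throughout, and that of Bcl6 between -1.91 and -1.78.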

How the data were processed

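Total RNA, extracted with TRIzol and labelled as biotin cRNA, was hybridised to Affymetrix mouse arrays, 2 per group, per the labels' protocols. The authors deposited log2 values per probe set. GCOS and RMA are named in the submitters' processing notes, without settings that would account for the many low values. Control probe sets were left out and the values otherwise used as deposited. Of 45037 probe sets 34945 have 1 gene symbol, 932 several and 9160 none, and 34741 were matched by gene ID to RefSeq without a change of symbol. limma 3.58.1 in R 4.3.3 fitted 4 group means over the 8 arrays (lmFit and eBayes, 4 residual degrees of freedom), with Benjamini-Hochberg adjustment over all probe sets and a threshold of 0.05. The same fit gave the YF response and the difference of the responses. The fit was tested on simulated data with independent normal noise and 50 changed probe sets of each size. The changed ones were all of middle level, none in the low group, so the recovery does not describe low probe sets. It recovered 13 of 50 at a log2 change of 1, 36 at 2, 41 at 3 and 46 at 4, with 9 false calls among 145 calls. A gene that did not pass may therefore still have changed. The series text calls the arrays biological duplicates, without saying whether cultures were separate, so p-values measure the spread between these arrays, and their number limits the precision. In the 33 lists a gene stands by its brightest probe set with 1 symbol.

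Named were Stat5a, Stat5b and Ghr, all passing genes, genes with an adjusted p of 0.05 to 0.10 and a change of at least 1 in size, STAT5 target and SOCS genes, up to 4 further members of each list by size of change, and genes whose difference passed. Other list members named for low or steady values (such as Ccl3, Cxcl9, Cxcl12, Il6, Csf2, Jak2, Rela, Lcn2, Asns, Hspa5, Fgf7, Odc1, Ptgs2 and Tsc22d3) were chosen after their values were seen. The members and lists were chosen with earlier results of these data known. Where an array left out leaves 1 in its group, that array is assumed to vary like the others. Same-numbered EA arrays deviated from their group means with a correlation of -0.213, and YF arrays with 0.12, so the replicate numbers were not treated as pairs. Stat5b was low on the EA arrays. Alternatives were quantile normalization, median centring, 2 filters on dim probe sets, limma's trend and robust options, the EA arrays alone, a replicate block and left-out arrays. Promoters (250 bases before the start) come from RefSeq, build GRCm38.p6, with 1 chromosome left out.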

Additional observations from a re-analysis of the deposited data

Results flagged for a closer look

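The response to growth hormone differed between EA and YF cells, by a test of the difference itself in the limma fit, for 9 probe sets. Their adjusted p values lay between 0.022 and 0.028, and the differences below are EA response minus YF response on the log2 scale. The difference was positive for Socs2 at 5.11, Ch25h at 1.82, Ccl20 at 1.44 and Dmp1 at 0.88. It was negative for Bcl6 at -1.85, Opn1sw at -1.17, Gda at -1.16, Cdca2 at -1.05 and Elf2 at -1.04.

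In 4 of them the change in EA cells lay within 0.04 of 0 and that in YF cells passed. Gda, a guanine deaminase, read 2.40 and 2.42 in YF cells without hormone and 3.55 and 3.62 with it, within the low group. Cdca2, a regulator of mitotic chromatin, read 3.21 and 3.22 in YF cells without hormone and 4.23 and 4.24 with it. Elf2, an ETS factor, read 5.95 and 5.91 in YF cells without hormone and 6.92 and 6.94 with it. Dmp1, a matrix protein of bone, read 3.41 and 3.44 in YF cells without hormone and 2.55 and 2.57 with it. That Dmp1 probe set was low on every array. None of the 4 was the brightest probe set of its gene. By the brightest one, the difference was -0.57 for Dmp1, opposite in sign, and 0.07 for Elf2. It was -0.21 for Gda and -0.76 for Cdca2, and none of these passed.

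The calls did not outlast every left-out array. Over the 9 probe sets the adjusted p was 0.077 to 0.11 without EA replicate 1, 0.067 to 0.12 without EA replicate 2 and 0.096 to 0.13 without YF replicate 2. Without YF with hormone replicate 1, Socs2 had 0.038, Ccl20 0.04, Ch25h 0.05 and Bcl6 0.064.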

How the results depend on the processing

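For the probe sets that passed or lay near the threshold, no change reversed its direction under any alternative, while 661 results fell short of the threshold, 35 came to pass it and 460 stayed on their side. For the EA response, quantile normalization gave 37 passing probe sets (24 higher, 13 lower), median centring 45 (23 higher, 22 lower), a mean level of at least 4 gave 54 (43 higher, 11 lower), the trend and robust options 106 (62 higher, 44 lower) and the EA arrays alone 4 (4 higher, 0 lower), where 2886 had an unadjusted p under 0.05. For the difference between mutants the counts were 8 with quantile normalization (5 higher, 3 lower), 0 with a mean level of at least 4 (0 higher, 0 lower, 2459 unadjusted), 1 above the median level (1 higher, 0 lower) and 42 with trend and robust options (16 higher, 26 lower).

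With 1 array left out, the EA response had 9 to 80 passing probe sets (7 to 49 higher, 2 to 32 lower) and the difference 0 to 201 (0 to 40 higher, 0 to 161 lower). Without the same-numbered array of both EA groups, the EA response had 2 without replicate 1 (1 higher, 1 lower) and 1 without replicate 2 (1 higher, 0 lower), and the difference 0 either way (7163 and 2712 unadjusted).

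With a replicate block within each mutant, 1 probe set passed in EA cells (1 higher, 0 lower), for Ccl20, out of 2677 unadjusted, and 0 in the difference (3916 unadjusted). With the EA numbers crossed in the block, a pairing chosen after seeing the data, 2 passed in EA cells (1 higher, 1 lower, for Ccl20 and Fgf18) and 0 in the difference (5864 unadjusted). Signal over background limits the low group: 24773 probe sets had a mean below 4, and the true size of a change that begins or ends there is not known. The cause of the lost calls was not tested, apart from the fewer residual degrees of freedom that the block (2) and each left-out array (3) leave, against 4.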
